A study of Mus musculus with 9 samples.

Results

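The miR-30 family was examined as 8 mature miRNAs, chosen by name from the 1448 mature miRNAs of the deposited table. They comprise 5 members from the 5p arm (mmu-miR-30a-5p, mmu-miR-30b-5p, mmu-miR-30c-5p, mmu-miR-30d-5p and mmu-miR-30e-5p) and 3 from the 3p arm (mmu-miR-30a-3p, mmu-miR-30d-3p and mmu-miR-30e-3p), with the mouse prefix left out from here on. Small RNA was sequenced from the hippocampus of C57BL/6J mice, with 3 libraries per group and 3 groups: saline, LPS, and LPS + GAS. The saline group received 0.9% saline. The LPS group received LPS, a bacterial endotoxin that sets off systemic and brain inflammation, in a single intraperitoneal dose of 1 mg/kg, and the labels give 0.12% saline for these mice. The LPS + GAS group received the same dose of LPS and 100 mg/kg of gastrodin (GAS), a phenolic glucoside from an orchid rhizome. According to the labels, GAS was given 1 h after LPS. The methods state both this interval and a concurrent injection, whereas the abstract places GAS before LPS. The study used adult male mice and no group received GAS alone among the libraries analysed here. Behaviour was tested at more than 1 time after LPS, and the study's text does not say after which time these hippocampi were taken. The sources do not say how many animals contributed to a library, so p-values measure the spread between these libraries.

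A miRNA hairpin is cut by Dicer into a duplex whose strands are the 5p and the 3p arm, and the strand that is loaded into Argonaute directs it to mRNAs that pair with the seed, bases 2 to 8 of the miRNA. MiR-30 is an old vertebrate family with several hairpins that give nearly the same 5p strand. Its 5p members are known for repressing Becn1, an autophagy gene, and Bdnf, a neurotrophin gene of the hippocampus. The mRNA targets were not measured in these libraries.

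The sequences below show what makes these miRNAs a family and how little separates some of them, with the seed in capitals. Mature sequences of 5 of the 8 members were matched in RefSeq (GRCm38.p6), together with miR-384-5p, the only other miRNA in the table with the seed of the 5p members.
miR-30a-5p: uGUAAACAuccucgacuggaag
miR-30c-5p: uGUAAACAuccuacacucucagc
miR-30e-5p: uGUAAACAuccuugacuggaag
miR-384-5p: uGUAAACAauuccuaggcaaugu
miR-30a-3p: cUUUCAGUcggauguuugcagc
miR-30e-3p: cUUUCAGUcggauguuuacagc

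All 5 members of the 5p arm had the seed GUAAACA, and the 3 members of the 3p arm had the seed UUUCAGU, which 0 other miRNAs of the table shared. MiR-30a-5p and miR-30e-5p differ by C13U and miR-30a-3p and miR-30e-3p by G18A, counted from 1 at the 5′ end with the base of the miR-30a strand first. MiR-30d-5p differs from miR-30a-5p at 1 base as well, whereas miR-30b-5p differs from miR-30a-5p at 7 of 22 bases. The 3p arms of the miR-30c hairpins carry another seed, UGGGAGA, and were not members.

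The hairpins lie at several places in the genome (GRCm38.p6). Mir30a is at chr1:23272269-23272339 on the plus strand, outside any other annotated gene, and Mir30c-2 is at chr1:23291701-23291784, within an exon of the lincRNA gene Gm27028. Mir30c-1 (chr4:120769534-120769622) and Mir30e (chr4:120772606-120772697) are on the minus strand in introns of Nfyc, which encodes a subunit of nuclear factor Y. MiR-30c-5p is made by both Mir30c-1 and Mir30c-2, so its reads cannot be assigned to either locus. MiR-30b and miR-30d are listed on chromosome 15, and Mir384 is at chrX:105344282-105344369.

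The libraries held 10119758 to 11457656 reads on miRNAs, and the 10 most abundant miRNAs took 55.0 to 58.4% of them. The 9 neuronal miRNAs of a marker list, such as miR-124-3p and miR-9-5p, were all above 0 reads in every library, and their summed level was 127590 to 166258 CPM (edgeR's depth-scaled read counts, with library totals adjusted by TMM factors). The 15 miRNAs of choroid plexus and ependyma, tissues that border the hippocampus, summed to 10081 to 30105 CPM in the saline group. Their sum was 9820 to 22688 CPM in the LPS group and 13004 to 57649 CPM in the LPS + GAS group. In each group the highest library was replicate 1. In LPS against saline, fitted log2 fold changes were above 0 for 2 of 15 of the choroid plexus list (median -0.38), 0 of 5 miRNAs of red blood cells (median -0.36), 0 of 3 of oligodendrocytes (median -0.61), 2 of 3 of leukocytes and microglia (median 0.095) and 2 of 4 of vessels (median -0.028). The comparison of LPS + GAS with LPS had values above 0 for 14 of 15, 5 of 5, 3 of 3, 3 of 3 and 3 of 4 of these lists in the same order, with medians of 1.14, 1.04, 0.46, 0.31 and 0.19. Against saline, the medians of LPS + GAS were 0.58, 0.61, -0.15, 0.51 and 0.0051. The neuronal list had values above 0 for 5, 4 and 5 of 9 in these 3 comparisons in turn, with medians of 0.017, -0.043 and 0.020. None of these miRNAs was called. The part of these lists in the values of the miR-30 members was not tested. In a piece of tissue, fewer cells of a type and less RNA per cell cannot be told apart.

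The 8 members together took 0.433 to 0.754% of the miRNA reads of a library. Their share was 0.540% ± 0.105 in the saline group, 0.634% ± 0.13 in the LPS group and 0.519% ± 0.0508 in the LPS + GAS group (SD, n = 3 each). The ranges of the 3 groups overlapped. The exact binomial 95% interval of a share was at most 0.00531 percentage points wide on either side, which covers counting error only, so the spread between libraries was far wider than that of counting. Nearly all of these reads were 5p reads, at 0.420 to 0.738% of the library, against 0.0129 to 0.0179% for the 3 members of the 3p arm.

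MiR-384-5p, which has been studied in hippocampal long-term potentiation, supplied 51.4% ± 5.77 of all reads with the seed GUAAACA (SD, n = 9). It ranked 30 of 1448 by mean level, at 5781 ± 810.3 CPM. Its level was 5942 ± 1329 CPM in saline, 5817 ± 513.8 CPM in LPS and 5583 ± 703.9 CPM in LPS + GAS (SD, n = 3). The 5p members and miR-384-5p together made up 0.957 to 1.32% of the miRNA reads.

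MiR-30d-5p and miR-30b-5p were the most abundant, with means of 1678 ± 426.6 and 1659 ± 217.3 CPM over the 9 libraries (SD), and ranked 60 and 61 of 1448. MiR-30c-5p followed at 1345 ± 401.6 CPM, miR-30a-5p at 660.5 ± 142.5 CPM and miR-30e-5p at 127 ± 33.5 CPM. The 3p members were lower, with miR-30a-3p at 74.1 ± 8.92 CPM, miR-30e-3p at 71.5 ± 8.10 CPM and miR-30d-3p at 10.2 ± 1.1 CPM. Mature lengths were 22 or 23 bases, so these levels need no scaling by length, but the efficiency with which each end is ligated into a library was not measured.

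**Figure D1:**
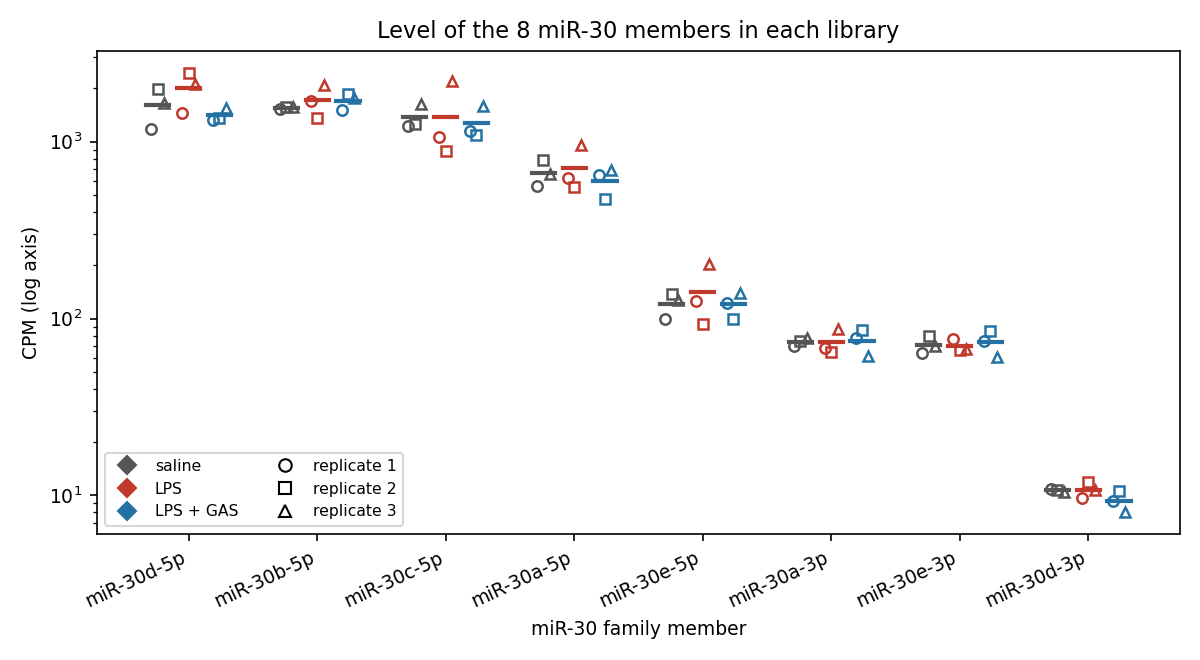
Level of each miR-30 member in each library, in CPM on a log axis, with members ordered by their mean level. Colours mark the groups, symbols the replicates and bars the mean of 3 libraries. The members run from miR-30d-5p and miR-30b-5p near 1678 and 1659 CPM to miR-30d-3p near 10.2 CPM, and within each member the 3 groups overlap.

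Neighbours in this order were compared within libraries over 7 pairs, by an exact two-sided sign-flip permutation test over 9 libraries whose smallest possible p is 0.00391. The order came from the mean levels of these same libraries, so the pairs were picked from the values tested. MiR-30d-5p and miR-30b-5p could not be separated, with miR-30d-5p the higher in 4 of 9 libraries and a mean log2 difference of -0.013 ± 0.41 (SD, exact permutation p = 0.938). MiR-30a-3p and miR-30e-3p could not be separated either, at 0.051 ± 0.16 on the log2 scale with miR-30a-3p the higher in 6 of 9 (exact permutation p = 0.375, Benjamini-Hochberg adjusted 0.438). MiR-30b-5p exceeded miR-30c-5p by 0.34 ± 0.30 in 7 of 9 libraries (exact permutation p = 0.0156, adjusted 0.0219). Each of the other 4 steps had the same direction in 9 of 9 libraries (exact permutation p = 0.00391, adjusted 0.00684). MiR-30b-5p was the highest member in 5 libraries, miR-30d-5p in 3 and miR-30c-5p in 1.

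The members also differed in how much they varied between libraries. The level of miR-30c-5p in the 9 libraries, in CPM, was 1224, 1255 and 1635 in saline, 1065, 887 and 2204 in LPS, and 1155, 1093 and 1583 in LPS + GAS, for replicates 1, 2 and 3 of each group. With TMM scaling, the lowest and the highest library were both LPS libraries, replicates 2 and 3, and differed 2.49-fold. MiR-30b-5p was steadier, at 1534, 1579 and 1569 CPM in saline, 1692, 1355 and 2089.8 CPM in LPS, and 1508, 1851 and 1755 CPM in LPS + GAS. With the same scaling its extremes were the same LPS libraries, 1.54-fold apart, while its saline libraries ran from 1534 to 1579 CPM.

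The SD of log2(CPM + 1) within groups was 0.20 for miR-30b-5p and 0.45 for miR-30c-5p, with miR-30a-5p at 0.32, miR-30d-5p at 0.33 and miR-30e-5p at 0.38 between them. It was 0.13 to 0.20 for the 3 members of the 3p arm, although they had far fewer reads. The median over the 628 miRNAs tested was 0.28, so 4 of the 5 members of the 5p arm lay above it and the 3 of the 3p arm below. For miR-30d-3p, with a mean of 108 reads, the SD of log2 CPM within groups was 0.14, and counting error alone gives 0.14. For the 5p members counting error was 0.011 to 0.040, a small part of their spread.

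Among the LPS libraries, replicates 2 and 3 stood at opposite ends of most 5p members. LPS replicate 3 was the highest of the 9 libraries for miR-30a-5p, miR-30b-5p, miR-30c-5p and miR-30e-5p, at 0.56, 0.34, 0.76 and 0.72 above their means on the log2 scale. LPS replicate 2 was the lowest in CPM for miR-30b-5p, miR-30c-5p and miR-30e-5p, at -0.28, -0.55 and -0.41. These ranks depend on its TMM factor of 1.19. Of its 10119758 miRNA reads, 16315 were miR-30b-5p and 1122 miR-30e-5p. Saline replicate 1, with 11457656, had 16058 and 1034. For miR-30c-5p it had 10676 reads, against 10698 of 10351236 in LPS replicate 1. In LPS replicate 2 miR-30d-5p stood 0.59 above its mean and was the highest of all 9, and so was miR-30d-3p, at 0.20.

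**Figure D2:**
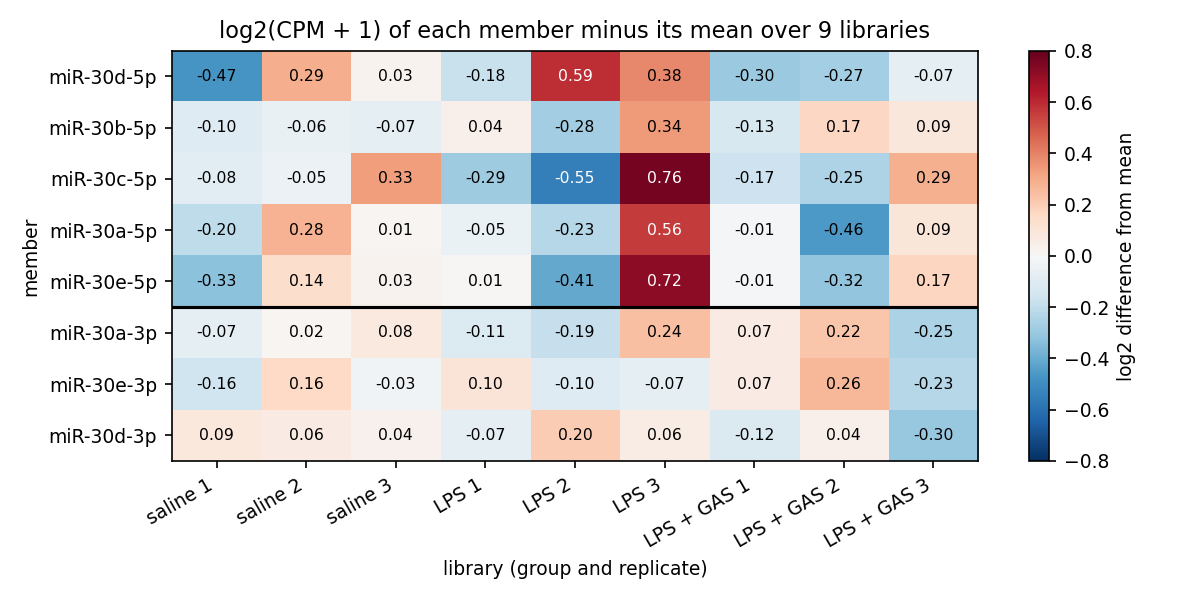
Difference of log2(CPM + 1) of each member (lines) in each library (columns) from its mean over 9 libraries, with red above and blue below the mean, and the 5p members above the black line. LPS 3 is red for every 5p member, at 0.34 to 0.76, while LPS 2 is blue for all of them but miR-30d-5p, at 0.59.

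The make-up of the 5p reads shifted accordingly in LPS replicate 2. MiR-30d-5p supplied 45.9% of the reads of the 5 members there, against 25.6 to 34.7% in the other 8 libraries. MiR-30c-5p supplied 16.6% against 21.5 to 29.1%, and miR-30e-5p 1.74% against 2.04 to 2.69%. The ratio of miR-30d-5p to miR-30b-5p reads, which are listed on the same chromosome, was 1.81 in LPS replicate 2 and 0.732 to 1.26 elsewhere. The TMM factor of this library was 1.19, the highest of the 9. That factor lowers every CPM value of this library but enters no ratio between members. The cause of its make-up was not tested.

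The 5p arm held more reads than the 3p arm in every library, and the hairpins differed in how far it did so. The miR-30d hairpin gave almost only 5p reads, at 108 to 207 per 3p read with a median of 159 and a mean 5p share of 99.4%. The miR-30a hairpin gave 5.48 to 11.2 5p reads per 3p read, with a median of 8.58 and a mean 5p share of 89.6%. The miR-30e hairpin was the most even, at 1.16 to 3.03 with a median of 1.65 and a mean 5p share of 63.4%. The 3 ranges did not overlap.

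For miR-30e the ratio of 5p to 3p reads was 1.55, 1.72 and 1.81 in saline, 1.64, 1.41 and 3.03 in LPS, and 1.65, 1.16 and 2.31 in LPS + GAS. LPS replicate 3 and LPS + GAS replicate 3 were the highest, and the saline libraries lay between the extremes of the other groups. For miR-30a it was 8.04, 10.5 and 8.41 in saline, 9.16, 8.58 and 11 in LPS, and 8.35, 5.48 and 11.2 in LPS + GAS. The LPS + GAS group thus held both the lowest and the highest miR-30a ratio.

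**Figure D3:**
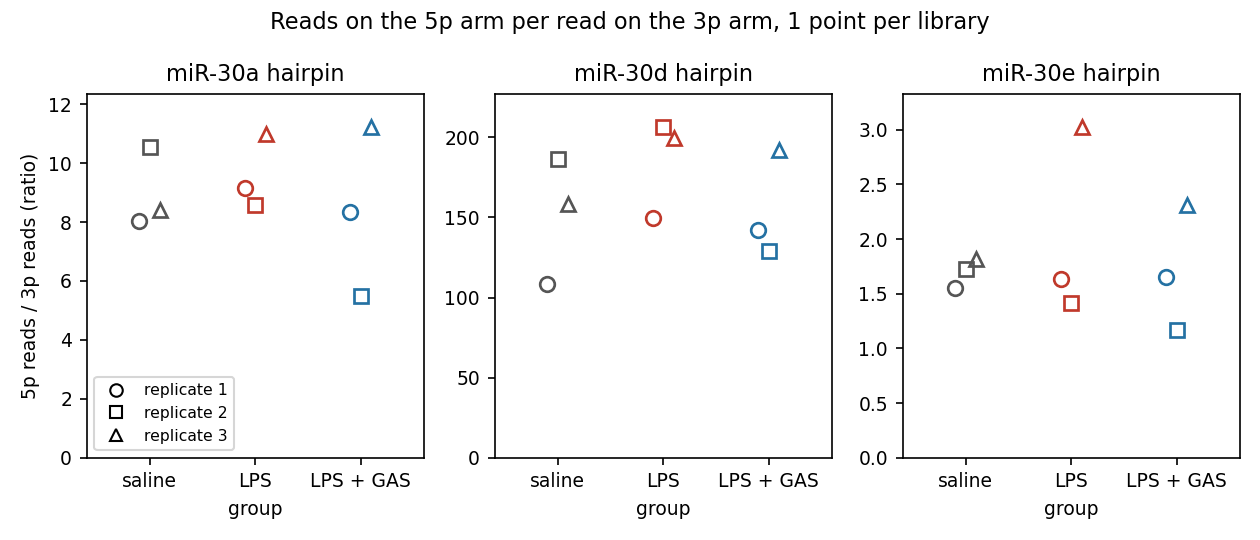
Number of 5p reads per 3p read for the miR-30a, miR-30d and miR-30e hairpins, with 1 point per library, groups along the horizontal axis and a separate linear scale from 0 for each hairpin. The miR-30d points lie at 108 to 207, the miR-30a points at 5.48 to 11.2 and the miR-30e points at 1.16 to 3.03, and the groups overlap for each hairpin.

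The arm ratios were compared between groups to ask whether LPS or GAS moved the balance of the strands, by exact two-sided permutation tests over the 20 divisions of 6 libraries in 3 and 3, which cannot give a p below 0.1. The largest difference was for miR-30d in LPS against saline, 0.32 on the log2 scale, from a mean of 7.20 ± 0.40 in saline to 7.52 ± 0.26 in LPS (SD, n = 3, exact permutation p = 0.3). It was 0.094 without saline replicate 1 and 0.49 without saline replicate 2. In LPS + GAS against LPS the miR-30d ratio was lower by 0.27 on the log2 scale, and this had the smallest p of the 9 tests (exact permutation p = 0.2). This difference was -0.15 without LPS + GAS replicate 2 and -0.44 without LPS + GAS replicate 3. All 9 had a Benjamini-Hochberg adjusted p of 0.9.

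No relation between the arms of a hairpin across libraries passed a test. Pearson's r between log2 levels of the 5p and 3p arms over 9 libraries was 0.19 for miR-30a (exact permutation p = 0.638, Spearman's rho 0.18, p = 0.644), 0.43 for miR-30d (exact permutation p = 0.247, rho 0.35, p = 0.359) and -0.13 for miR-30e (exact permutation p = 0.745, rho -0.033, p = 0.948). Without the 2 libraries farthest from the median of the 5p arm r was 0.28, 0.00037 and -0.19. With 9 libraries, these values do not show that the arms were unrelated.

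Among the 28 pairs of members, the closest relation was between the 5p strands of miR-30a and miR-30e, which come from different chromosomes. In CPM, miR-30a-5p was at 562, 784 and 655 in saline, 625, 554 and 957 in LPS, and 644, 472 and 692 in LPS + GAS. MiR-30e-5p was at 98.8, 137 and 126 in saline, 125, 93.2 and 204 in LPS, and 123, 99.5 and 139.7 in LPS + GAS. Both were highest in LPS replicate 3. With TMM scaling, the 3 lowest values of each were those of saline replicate 1, LPS replicate 2 and LPS + GAS replicate 2.

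Pearson's r over the 9 libraries was 0.94 (exact permutation p = 0.000336, Benjamini-Hochberg adjusted 0.00941 over 28 pairs) and Spearman's rho 0.92 (exact permutation p = 0.00131, adjusted 0.0367). It was 0.90 without the 2 libraries farthest from the median of miR-30a-5p, 0.87 without LPS replicate 3 and 0.96 after the group means were removed. The ratio of their reads stayed between 4.68 and 5.94, a 1.27-fold range, while the levels varied 2.03-fold and 2.19-fold. Their sequences differ at 1 base, and the sources used here do not say whether the counting allowed mismatches. An exchange of reads between the pair was not tested.

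MiR-30d-5p also differs from miR-30a-5p at 1 base, but r between them was 0.46 (exact permutation p = 0.215, adjusted 0.691, rho 0.40, p = 0.291, adjusted 0.815) and 0.12 without the 2 farthest libraries. This value moved with single LPS libraries, to 0.85 without replicate 2 and 0.27 without replicate 3. Likewise r between miR-30b-5p and miR-30d-5p was -0.050 over 9 libraries (exact permutation p = 0.899, rho 0.083, p = 0.843) but 0.48 without LPS replicate 2 and -0.51 without LPS replicate 3. MiR-30c-5p and miR-30e-5p, whose hairpins Mir30c-1 and Mir30e share the Nfyc introns, had r = 0.85 (exact permutation p = 0.00471, adjusted 0.0660, rho 0.80, p = 0.0138, adjusted 0.129). This r was 0.81 without LPS replicate 2, 0.67 without LPS replicate 3 and 0.49 without the 2 farthest libraries. After the group means were removed it was 0.90, so its size moved with the libraries kept but not with the group means. In all, 1 of 28 pairs passed the adjustment. The median r was 0.57 among the 10 pairs of 5p members and -0.13 among the 15 pairs of a 5p and a 3p member, and the points share the libraries and their scaling.

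**Figure D4:**
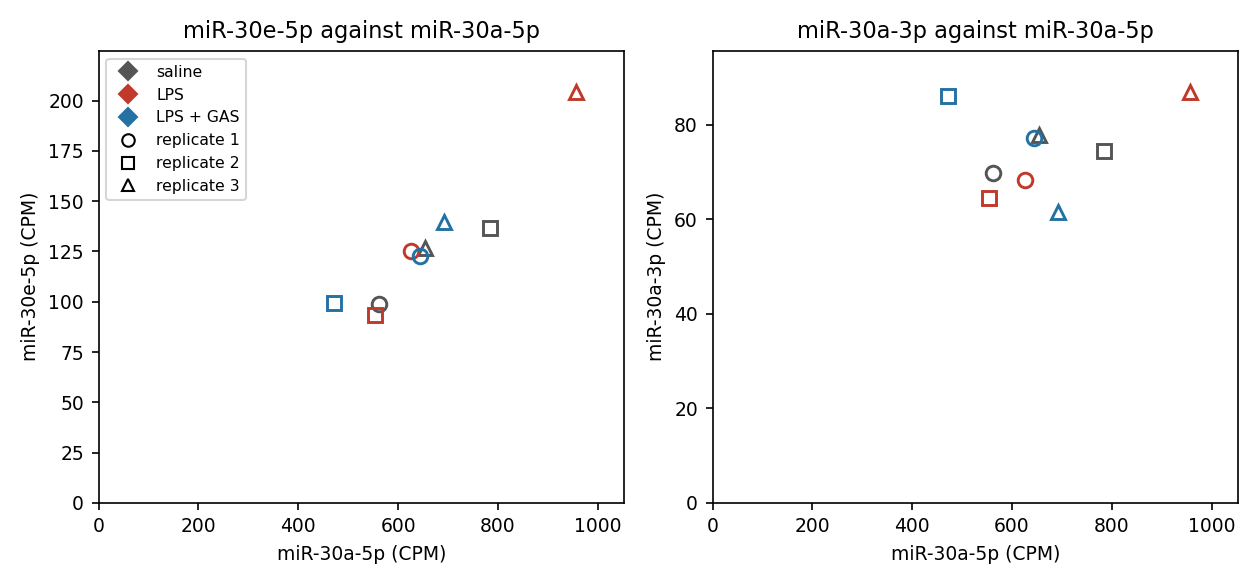
Level of miR-30e-5p (left) and miR-30a-3p (right) against that of miR-30a-5p in the 9 libraries, in CPM on linear axes from 0. Colours mark groups and symbols replicates. The left points lie close to a line through LPS 3 at 957 and 204 CPM (r = 0.94 on the log2 scale), whereas those on the right show no such order (r = 0.19).

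The miRNAs outside the family whose log2 levels were most like the summed 5p members over the 9 libraries, of 180 with a mean of at least 100 CPM, were miR-129-2-3p (r = 0.80), let-7i-3p (0.75), miR-195a-5p (0.68), miR-151-3p (0.65) and miR-153-3p (0.64). All 5 were highest in LPS replicate 3. Those most like the summed 3p members were miR-132-5p (r = 0.82), miR-212-3p (0.80), miR-181a-5p (0.78), miR-34a-5p (0.75) and miR-490-5p (0.74). These 10 were picked for their r, which is a description and carries no test.

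LPS was compared with saline to ask which members respond to the endotoxin. The counts were tested with edgeR (quasi-likelihood, Benjamini-Hochberg over 628 miRNAs), and a call needed an adjusted p of 0.05 or less and at least a doubling or a halving. In this comparison 0 of the 8 members were called, beside 0% of all miRNAs tested. None had an unadjusted p under 0.05, against 2.39% of all. Nor did any separate the groups without overlap, against 3.82%. DESeq2 called 0 members beside 0.159% of all miRNAs, and limma voom 0 members beside 0%, and by both tools 0 members had an unadjusted p under 0.05.

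The fitted log2 fold changes in LPS against saline were -0.019 to 0.32, with a median of 0.055 beside -0.045 over all miRNAs tested. MiR-30d-5p had the largest, 0.32 (SE 0.24, 95% interval -0.23 to 0.86, edgeR adjusted p = 0.992). It was 0.18 without LPS replicate 2 or without saline replicate 1, and 0.56 without saline replicate 2 and 0.51 without LPS replicate 1. Its level was 1178, 1993 and 1663 CPM in saline and 1444, 2455 and 2130.3 CPM in LPS, so 1 LPS library lay below 2 of the saline libraries. The 5 members of the 5p arm were fitted above 0, from 0.015 for miR-30c-5p. The sign of 4 of them turned without LPS replicate 3, to -0.18 for miR-30a-5p, -0.032 for miR-30b-5p, -0.49 for miR-30c-5p and -0.14 for miR-30e-5p. That of miR-30c-5p, close to 0, also turned without saline replicate 1 (-0.017) and by voom (-0.091).

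The fitted log2 fold changes of the 3 members of the 3p arm lay between -0.019 and 0.0061. MiR-30a-3p was at 69.9, 74.5 and 77.8 CPM in saline and 68.3, 64.5 and 87.0 CPM in LPS, with a log2 fold change of -0.016 (SE 0.19). MiR-30e-3p was at -0.019 (SE 0.19) and miR-30d-3p at 0.0061 (SE 0.19). The 95% interval lay within -1 and 1 for 8 of 8 members, against 66.9% of all miRNAs tested, so a doubling or halving of any member lay outside its interval.

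LPS + GAS was compared with LPS to ask whether GAS shifts the members in mice given the endotoxin. Again 0 of 8 members were called, beside 0% of all miRNAs tested. By edgeR 0 members had an unadjusted p under 0.05 (3.66% of all), and 0 separated the groups without overlap (8.6% of all). DESeq2 and limma voom gave 0 members at either threshold as well, and each called 0% of all miRNAs.

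MiR-30d-5p had the largest fitted difference of any member in any comparison. It was at 1444, 2455 and 2130.3 CPM in LPS and 1328, 1355 and 1553 CPM in LPS + GAS, where replicate 3 exceeded the lowest LPS library. Its log2 fold change was -0.51 (SE 0.24, edgeR adjusted p = 0.903). The means were 2009.9 ± 516.5 CPM in LPS and 1412 ± 122.8 CPM in LPS + GAS (SD, n = 3). The 95% interval, -1.06 to 0.037, reached just past a halving and included 0. Leaving out LPS replicate 2 gave -0.33 and leaving out LPS replicate 1 gave -0.70, so its size rested on which LPS libraries were kept.

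MiR-30d-3p, from the same hairpin, was at 9.65, 11.9 and 10.7 CPM in LPS and 9.33, 10.5 and 8.09 CPM in LPS + GAS, a log2 fold change of -0.20 (SE 0.19, edgeR adjusted p = 0.907). The groups overlapped. The 5 members of the 5p arm were fitted below 0 in this comparison, from -0.51 to -0.0065, with a median of -0.22 beside 0.0030 over all miRNAs tested. Both comparisons share the LPS libraries, and without LPS replicate 3 the values were 0.033 for miR-30a-5p, 0.16 for miR-30b-5p, 0.39 for miR-30c-5p and 0.15 for miR-30e-5p. MiR-30a-3p (0.033) and miR-30e-3p (0.070) were fitted above 0. The 95% interval lay within -1 and 1 for 7 of 8 members, against 63.5% of all.

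LPS + GAS was also set against saline, the comparison of treated mice with mice given no LPS. Here 0 of 8 members were called, beside 0.159% of all miRNAs tested, which is 1 miRNA of 628. By edgeR 0 members had an unadjusted p under 0.05 (3.34% of all), and 0 separated the groups without overlap (7.32% of all). DESeq2 and limma voom gave 0 members at either threshold, and each called 0.159% of all. The log2 fold changes ran from -0.20 for miR-30d-3p (SE 0.19) to 0.13 for miR-30b-5p (SE 0.18), with a median of -0.051 beside -0.028 over all. Both ends moved with the libraries kept, since miR-30d-3p was at -0.041 without LPS + GAS replicate 3 and miR-30b-5p at 0.066 without LPS + GAS replicate 2 and 0.26 without LPS + GAS replicate 1.

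MiR-30e-5p had the same mean in both groups, 121 ± 19.7 CPM in saline and 121 ± 20.2 CPM in LPS + GAS (SD, n = 3), with a 95% interval of -0.64 to 0.64 on the log2 scale. MiR-30e-3p was at 63.5, 79.4 and 69.7 CPM in saline and 74.5, 85.5 and 60.5 CPM in LPS + GAS, with the latter group holding both extremes. Its log2 fold change was 0.052 (SE 0.19). The 95% interval lay within -1 and 1 for 8 of 8 members, against 64.6% of all.

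**Figure D5:**
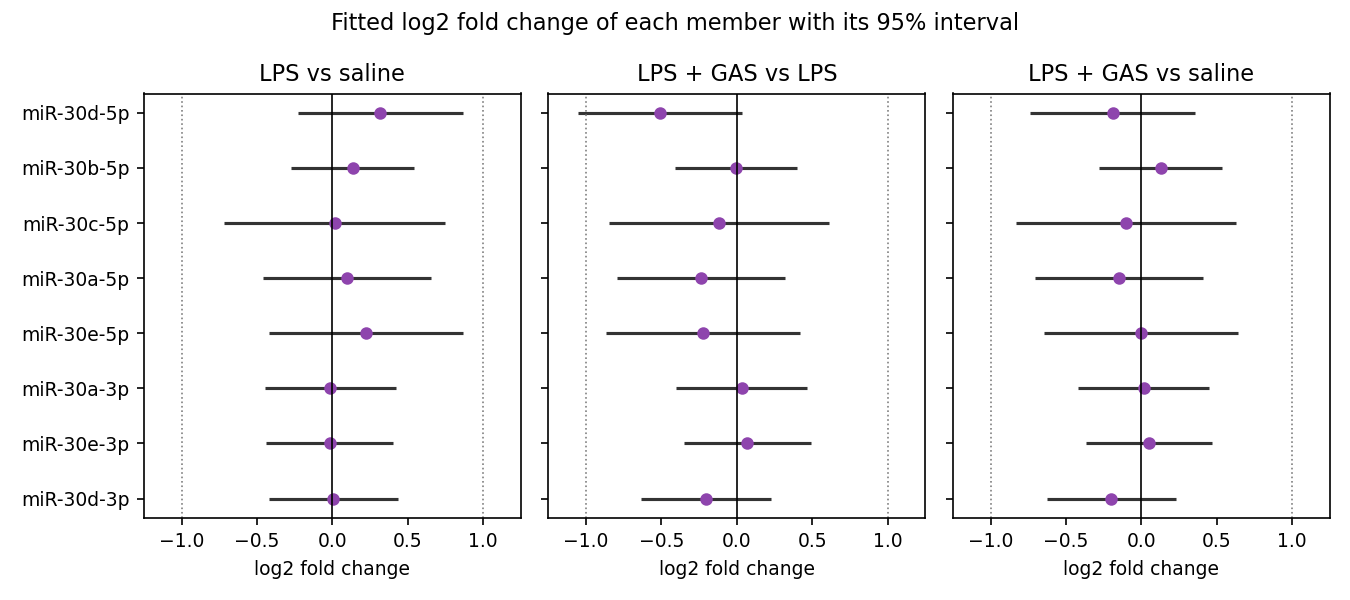
Fitted log2 fold change (points) and 95% interval (lines) of each miR-30 member in the 3 comparisons, with dotted lines at -1 and 1. Every interval includes 0, and the interval of miR-30d-5p in LPS + GAS against LPS, from -1.06 to 0.037, is the only one that passes a dotted line.

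Of the 3p arms outside the 8 members, only miR-30b-3p was lower than every member, the lowest of which was miR-30d-3p at 10.2 CPM. MiR-30c-2-3p averaged 50.7 CPM, miR-30c-1-3p 25.1 CPM and miR-30b-3p 2.16 CPM over the 9 libraries. In LPS against saline their log2 fold changes were -0.039 (SE 0.22), -0.060 (SE 0.22) and -0.080 (SE 0.30), in LPS + GAS against LPS -0.015, 0.039 and 0.25, and in LPS + GAS against saline -0.054, -0.022 and 0.17. The groups overlapped in each comparison. MiR-384-5p, with the same seed as the 5p members, was at -0.031 (SE 0.19) in LPS against saline, -0.059 (SE 0.19) in LPS + GAS against LPS and -0.090 (SE 0.19) in LPS + GAS against saline.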

How the data were processed

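Small RNA libraries from mouse hippocampus, 3 per group, were made for the BGISEQ-500. What the authors deposited is a table of read counts per mature miRNA and library, not normalized, together with exp values, whole-number counts at or below the read counts whose making is not stated. No aligner or counter is named in the sources used here. The submitters' processing notes name the build GRCm38.p6. The deposited table also holds the authors' group means and comparisons (log2 fold changes, p-values and q-values), which were not used. Each per-library column names its sample, so 0 stayed unmapped.

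The counts were fitted with edgeR 4.0.16 under R 4.3.3. The filter asked for 10 or more reads in 3 or more libraries and kept 628 of 1448 miRNAs, all 8 members included. TMM factors were 0.914 to 1.19, and the model had a mean per group over all 9 libraries (glmQLFit, glmQLFTest). P-values were adjusted by Benjamini-Hochberg over the 628. A call needed an adjusted p of 0.05 or less and a log2 fold change of 1 or more in size. Alternatives were DESeq2 1.42.0 size factors and Wald test, limma 3.58.1 voom, robust edgeR, no filter, a minimum of 50 reads, only the 2 groups compared, exp values, no minimum fold change, a replicate block and each library left out in turn. The scripts were tested on simulated data with planted changes far larger than any fitted for a member. That test does not show whether changes as small as those of the members would be found. Correlations without single libraries were added after the data had been seen. Correlations used log2(CPM + 1) and exact pairing permutations (Python 3.11.15, scipy 1.17.1).

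At this depth 10 reads are about 1 CPM. Same-group libraries differed beyond counting noise, so 0 pairs were treated as a library deposited more than once. This does not show that they came from separate animals. In LPS + GAS against saline, same-numbered libraries deviated together from their group means, with correlations of 0.296 to 0.370 over 3 pairs. No shared litter or day is named, so this rests on the correlations.

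The miRNAs named are the 8 members, others that share a member's seed, the remaining miR-30 3p arms and, for each summed arm, the 5 miRNAs with the highest r. The members and the lists were chosen with earlier results of these data known.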

Additional observations from a re-analysis of the deposited data

How the results depend on the processing

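No alternative called a member: the count stayed at 0 of 8 in the 3 comparisons under every setting tried, and the lowest adjusted p of a member was 0.707. Of 432 refitted log2 fold changes (24 fold changes under 18 settings), 366 kept their direction, 66 changed sign, and 5 of the 24 kept it throughout. The 5 separated steps in the order of the levels stayed 5 with exp values and without any library. The share of the members rose from a mean of 0.565% of read counts to 1.24% of exp values, whose largest value is 171527. By exp values, miR-384-5p took 0.876 to 1.16% of a library and the 5p members 0.979 to 1.60%. The 51.4% given for miR-384-5p among the reads with its seed thus holds for read counts only.

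Under the alternatives other than leaving out a single library, the signs that turned were of values close to 0. In LPS against saline, miR-30c-5p was at -0.091 by voom and -0.079 with the replicate block. MiR-30a-3p was at 0.040 with DESeq2 size factors, 0.030 with no filter, 0.016 with 50 reads, 0.039 by the DESeq2 test, 0.031 with only 2 groups and 0.032 with exp values, and miR-30e-3p was at 0.033, 0.023, 0.0059, 0.033, 0.026 and 0.027 under the same settings. In LPS + GAS against LPS, miR-30b-5p was at 0.0021 with no filter, 0.00070 with 50 reads, 0.011 by voom and 0.0037 with the block. In LPS + GAS against saline, miR-30e-5p (-0.00011) was at 0.055 with DESeq2 size factors, 0.050 with no filter, 0.029 with 50 reads, 0.055 by the DESeq2 test, 0.00078 with only 2 groups and 0.039 with exp values. The cause was not tested.

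With each library left out in turn, log2 fold changes in LPS against saline ran from -0.18 to 0.28 for miR-30a-5p, -0.032 to 0.31 for miR-30b-5p, -0.49 to 0.29 for miR-30c-5p, 0.18 to 0.56 for miR-30d-5p, -0.14 to 0.48 for miR-30e-5p, -0.15 to 0.099 for miR-30a-3p, -0.044 to 0.077 for miR-30d-3p and -0.087 to 0.12 for miR-30e-3p. In LPS + GAS against LPS they ran from -0.39 to 0.033 for miR-30a-5p, -0.13 to 0.16 for miR-30b-5p, -0.35 to 0.39 for miR-30c-5p, -0.70 to -0.33 for miR-30d-5p, -0.44 to 0.15 for miR-30e-5p, -0.078 to 0.18 for miR-30a-3p, -0.30 to -0.093 for miR-30d-3p and -0.052 to 0.22 for miR-30e-3p. In LPS + GAS against saline they ran from -0.21 to 0.037 for miR-30a-5p, 0.066 to 0.26 for miR-30b-5p, -0.22 to 0.043 for miR-30c-5p, -0.33 to 0.046 for miR-30d-5p, -0.083 to 0.15 for miR-30e-5p, -0.093 to 0.21 for miR-30a-3p, -0.29 to -0.041 for miR-30d-3p and -0.070 to 0.24 for miR-30e-3p.

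The differences in log2 arm ratio ran from -0.011 to 0.21 for miR-30a, 0.094 to 0.49 for miR-30d and -0.16 to 0.39 for miR-30e in LPS against saline, -0.49 to 0.024 for miR-30a, -0.44 to -0.15 for miR-30d and -0.46 to 0.11 for miR-30e in LPS + GAS against LPS, and -0.40 to 0.12 for miR-30a, -0.18 to 0.22 for miR-30d and -0.29 to 0.20 for miR-30e in LPS + GAS against saline.

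The replicate block changed no call, with 0 members called in each comparison. Same-numbered libraries correlated at 0.317, 0.209 and -0.284 in LPS against saline, for replicates 1, 2 and 3. In LPS + GAS against LPS they correlated at -0.274 to 0.0466. These values, over 3 pairs each, do not show whether such libraries share more than a number. The intervals given limit what 3 libraries per group can show. Over the 3 comparisons they reached from -1.06 to 0.87 on the log2 scale.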
